A study of Mus musculus with 3 samples.

Results

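Aminoacyl-tRNA synthetases are the enzymes that join each amino acid to its tRNA, so that the ribosome can use it. Mammalian cells keep one set in the cytosol and another, encoded by separate nuclear genes, for protein synthesis inside mitochondria. Several cytosolic enzymes sit together in a multi-synthetase complex held by scaffold proteins, and many cytosolic synthetase genes are known targets of ATF4, the transcription factor of the integrated stress response. Faults in synthetase genes of either compartment are known from inherited disease.

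RNA was measured in C2C12 cells, an immortalised mouse myoblast line, after 4 days of myogenic differentiation. There were 3 libraries with 1 library per group. WT is the library with the genotype label WT. KO carries a labelled knockout of Drp1 (gene Dnm1l), a dynamin-related GTPase needed for mitochondrial fission, and rescue is the knockout line transiently expressing FLAG-Drp1. The labels do not say how the knockout was made or whether it is a single clone. Each group being a single library, no value below carries a replicate error or a p-value, and each difference is one between libraries rather than conditions.

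The synthetase genes were chosen by annotation: mRNA rows whose product name contains "tRNA synthetase", with Lars2 left out. This found 41 of 46316 genes, and all 41 passed the low-count filter. They comprised 21 cytosolic synthetase genes, 16 mitochondrial ones and 4 genes that carry the phrase but are no synthetase (Aimp1, Aimp2, Aarsd1 and Prorsd1). Tarsl2, whose symbol ends in 2, was placed with the cytosolic enzymes, being a second cytosolic threonyl enzyme. Gene symbols are those of the deposited tables (Aars for Aars1, Tarsl2 for Tars3 and so on).

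The libraries were of like depth, with 13894096 counts over genes for WT, 13790417 for KO and 13925286 for rescue. Dnm1l had 1823, 1284 and 1481 counts in WT, KO and rescue (log2 ratio -0.48 in KO against WT). In rescue its log2 ratio was 0.21 against KO and -0.27 against WT, so its count stayed below that of WT. Its RNA was still present in the library labelled KO, and RNA counts do not show whether the protein is lost or restored. The 6 markers of differentiated muscle were detected in every library, with summed levels of 12690 CPM in WT, 13486 in KO and 17671 in rescue. They were split in KO, where Acta1, Myh3 and Myog were higher than in WT and Ckm (3.04-fold), Mylpf (1.42-fold) and Tnnt3 (1.16-fold) lower. Adipoq, Cidec, Pecam1, Ptprc and Adgre1, markers of fat, endothelium and macrophages, were at 0 counts in all 3 libraries. Other genes of these lists were detected. Lipe and Fabp4 of the fat list had 71, 57 and 66 counts and 0, 5 and 3 in WT, KO and rescue. Tek of the endothelial list had 16, 7 and 11 counts, and Cd68 of the macrophage list 22, 55 and 42. Runx2 had 474, 677 and 503 counts and made up nearly all of the bone list's level. The 6 fibroblast genes summed to 2908 CPM in WT, 6038 in KO and 5027 in rescue, with Thy1 at 0, 1 and 0 counts. Col1a1, Col3a1, Pdgfra and Postn were higher in KO (log2 ratios 1.86, 0.87, 1.12 and 3.18) and Dcn lower (-1.51). Dividing and undifferentiated myoblast markers summed to 434, 339 and 337 CPM. The 5 fat, 5 bone, 4 endothelial and 4 macrophage markers summed to at most 5.09, 49.2, 1.28 and 4.20 CPM in any library. The part of the muscle, myoblast and fibroblast shifts in the synthetase values was not tested, and in such bulk RNA fewer cells of a type and less RNA per cell cannot be told apart.

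Cytosolic synthetase genes were expressed well above mitochondrial ones in every library. Per transcript length, in the TPM deposited by the authors, the 21 cytosolic genes had a median of 23.8 in WT (range 2.32 to 72.4), 31.0 in KO and 28.3 in rescue. The 16 mitochondrial genes had a median of 3.08 in WT (range 0.711 to 13.5), 3.38 in KO and 3.31 in rescue. Gars, the glycyl enzyme that serves both compartments, and Nars, the asparaginyl enzyme, were the highest in each library, at 72.4 and 64.5 TPM in WT. Tarsl2 was the lowest cytosolic gene at 2.32 TPM, beside 41.7 for Tars, the main threonyl enzyme. Iars2, the mitochondrial isoleucyl enzyme, led the mitochondrial set at 13.5 TPM. Nars2 was lowest at 0.711 on the transcript row used, of 14167 bases. On a row of 3756 bases Nars2 had 2.53 TPM in WT, above Wars2 at 1.03, so its place depends on the row. TPM is used here to compare genes within a library, and differences between libraries are taken from scaled counts.

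**Figure D1:**
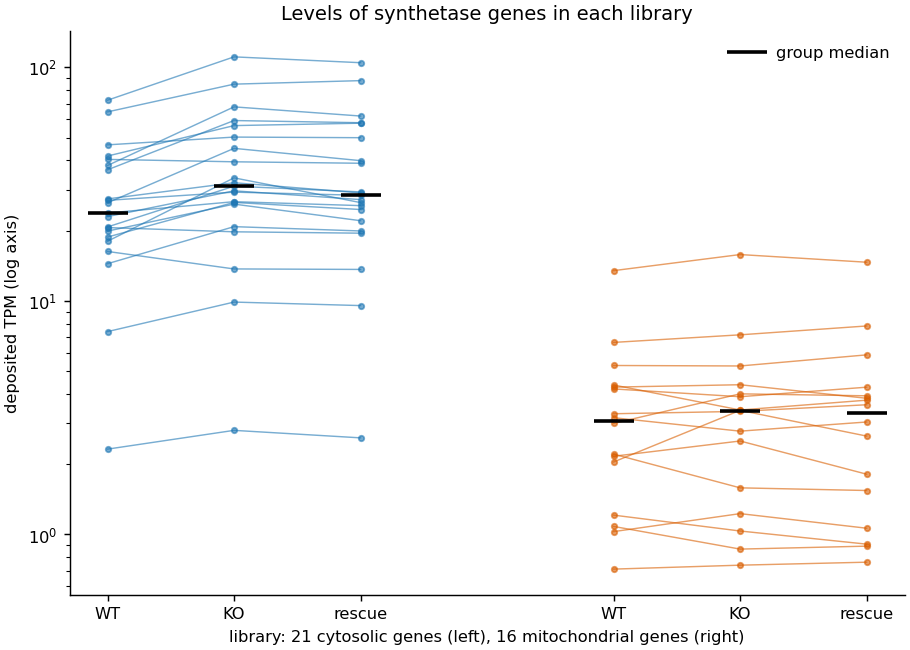
Deposited TPM (vertical, log axis) of the 21 cytosolic and 16 mitochondrial synthetase genes in the WT, KO and rescue libraries. Each joined line of 3 points is a gene and the black bars are group medians, which lie near 24 to 31 for cytosolic genes and near 3 for mitochondrial genes.

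In KO, most cytosolic synthetase genes had higher counts than in WT, by less than 2-fold, while mitochondrial ones lay on both sides of WT. The 21 cytosolic genes together had 48220 counts in WT, against 62860 in KO and 63395 with rescue. Scaled for library size, the KO sum was 1.33-fold above WT (log2 ratio 0.41, 95% counting interval 0.39 to 0.43). The median log2 ratio of the cytosolic genes was 0.35, beside 0.00 (0.0006) for the median of all 13382 genes tested. The 16 mitochondrial genes had 4828 counts in WT, against 5001 in KO and 5161 with rescue, and their median log2 ratio for KO was -0.01. Counting intervals here are exact and cover sampling of reads only.

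No enzyme of either set was 2-fold different in any of the 3 pairs of libraries. In KO against WT, 5.35% of all genes tested passed 2-fold upward and 4.07% downward. At 1.5-fold, 4 of 21 cytosolic genes and 1 of 16 mitochondrial genes were higher in KO, beside 12.1% of all genes, and no enzyme of either set was 1.5-fold lower, beside 10.4%. Most differences of the cytosolic genes were thus small, and most were in 1 direction. Of the 21, 18 had a ratio above 0, beside 50.1% of all genes. Among mitochondrial genes 7 of 16 had a ratio above 0. The counting interval lay above 0 for 15 of 21 cytosolic genes and below 0 for 1, beside 29.0% and 29.3% of all genes. The interval narrows as counts grow, so such shares depend on the level of the genes. For mitochondrial genes it lay above 0 for 3 and below 0 for 3 of 16.

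**Figure D2:**
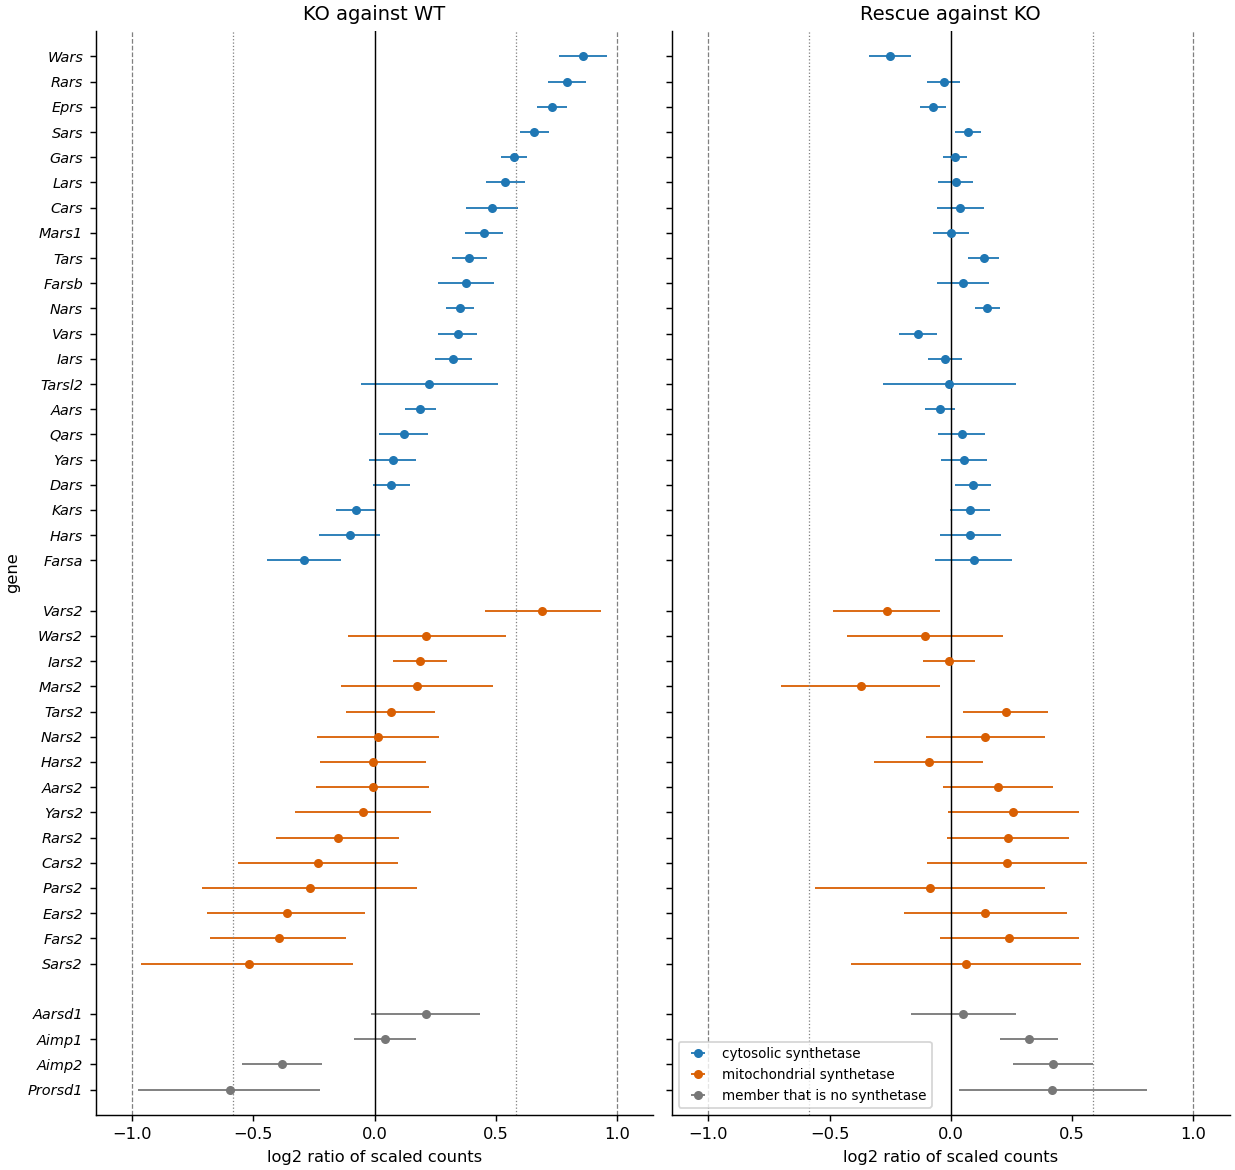
Log2 ratio of scaled counts for the genes described (points) with 95% counting intervals (bars), KO against WT on the left and rescue against KO on the right. Dotted lines mark 1.5-fold and dashed lines 2-fold. In KO against WT 18 of 21 cytosolic genes lie right of 0 and no gene reaches 2-fold.

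The highest ratio of all members was that of Wars, the tryptophanyl enzyme, which is also known as an interferon-induced gene. It had 1310 counts in WT, against 2337 in KO and 1954 with rescue, 1.82-fold higher in KO (log2 ratio 0.86, interval 0.76 to 0.96). Rars, the arginyl enzyme of the complex, had 2132, 3628 and 3537 counts, 1.73-fold higher in KO (log2 ratio 0.79, interval 0.71 to 0.87). Both stood high in KO and in rescue, and Wars was lower in rescue than in KO. Eprs, a fused enzyme that charges glutamate and proline tRNAs, had 3412, 5572 and 5267 counts (log2 ratio 0.73 in KO, interval 0.67 to 0.80). Sars, the seryl enzyme, had 3552, 5511 and 5755 counts (log2 ratio 0.66, interval 0.60 to 0.72). These 4 genes were the cytosolic ones past 1.5-fold. Gars was just short of it at 1.49-fold (interval 0.52 to 0.63 on the log2 scale), with 4551 counts in WT, against 6662 in KO and 6711 with rescue, and with the length trend removed it passed, at a log2 ratio of 0.63. Lars, the leucyl enzyme, had 2135, 3046 and 3072 counts (1.45-fold, log2 ratio 0.54, interval 0.46 to 0.62). In each of these genes except Wars and Eprs the rescue count differed from the KO count within the counting interval or lay above it.

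Smaller differences were found for the middle of the set. Cars, the cysteinyl enzyme, was 1.40-fold higher in KO, Mars1, the methionyl enzyme, 1.37-fold, and Tars 1.31-fold. Nars, Vars and Iars, for asparagine, valine and isoleucine, were 1.28-fold, 1.27-fold and 1.25-fold higher. Aars, the alanyl enzyme, was 1.14-fold higher and Qars, the glutaminyl enzyme, 1.09-fold. The counting interval included 0 for Tarsl2, Yars (tyrosine), Dars (aspartate), Kars (lysine, serving both compartments) and Hars (histidine).

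The subunits of the cytosolic phenylalanyl enzyme, a tetramer of alpha and beta chains, differed in direction. Farsa, the alpha subunit, had 784 counts in WT, against 630 in KO and 669 with rescue, 1.22-fold lower in KO (log2 ratio -0.29, interval -0.44 to -0.14). Farsb, the beta subunit, had 1093, 1396 and 1439 counts, 1.30-fold higher in KO (log2 ratio 0.38, interval 0.26 to 0.49). The intervals do not overlap. Farsa was the cytosolic gene with the lowest ratio and the 1 whose interval lay below 0. Its transcript row is 1829 bases long and that of Farsb 5619 bases, while a Farsb row of 2274 bases also had a log2 ratio of 0.38. With the length trend removed, the log2 ratios were -0.20 for Farsa and 0.29 for Farsb, still in different directions.

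Genes of the multi-synthetase complex and of cytosolic enzymes outside it had close medians. The latter are called free here, whatever other complexes they may join. The 8 complex enzymes (Eprs, Iars, Lars, Mars1, Qars, Rars, Kars and Dars) showed 0.39 as their median log2 ratio (KO to WT), and the 13 free enzymes 0.35. Within the complex, the ratios ran from -0.08 for Kars to 0.79 for Rars, so genes whose proteins share a particle had unequal ratios. By catalytic fold, all 9 cytosolic class I genes had a ratio above 0 (median 0.45), as had 8 of 11 class II genes (median 0.23, with Eprs, a fusion of both folds, left out). These subgroups are small and the differences between them were not tested.

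Of the 3 scaffold genes of the complex, Aimp2 and Eef1e1 were lower in KO than in WT, each by less than 1.5-fold, and Aimp1 was close to WT. Aimp2 had 698 counts in WT, against 526 in KO and 701 with rescue, 1.30-fold lower in KO (log2 ratio -0.38, interval -0.55 to -0.22) and 1.34-fold above KO in rescue (log2 ratio 0.42, interval 0.26 to 0.59). Eef1e1, the third scaffold protein, which the product names did not select, had 519, 381 and 505 counts (log2 ratio -0.42 in KO against WT, interval -0.62 to -0.23). Aimp1 had 997, 1010 and 1257 counts, close to WT in KO and 1.25-fold above KO in rescue. The KO library was thus the low one for Aimp2 and Eef1e1, with WT and rescue close together. All 3 scaffolds have short transcripts (median 1185 bases), and the shortest length class of genes (1449 genes) had a median of -0.19 on the same scale. With the length trend removed, the scaffold median moved from -0.38 to -0.22 in KO against WT and from 0.41 to 0.21 in rescue against KO. Aimp1 then came to 0.20 in KO against WT, above its counting interval of -0.08 to 0.17. In rescue against KO it came to 0.15, below its interval of 0.20 to 0.44. Its closeness to WT in KO thus depended on the length setting. Exons of Aimp2 overlap those of Eif2ak1 on the other strand (29.4% of its exonic bases in the GENCODE M21 annotation, build GRCm38). No source used here states the strand setting of the counting, so this count is uncertain.

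Among the mitochondrial enzymes, Vars2, which charges valine tRNA, was the single gene past 1.5-fold. It had 238 counts in WT, against 378 in KO and 313 with rescue, 1.62-fold higher in KO (log2 ratio 0.69, interval 0.46 to 0.93) and below KO in rescue (log2 ratio -0.26, interval -0.49 to -0.05). Its highest count was in KO, and rescue lay between the other libraries. A shorter Vars2 transcript row of 2137 bases had 107, 221 and 177 counts (log2 ratio 1.07, interval 0.73 to 1.42). Rows of a gene repeat the same reads, so their intervals cannot be used to compare them. The size of the Vars2 ratio thus depended on the row. Iars2 had 1263, 1413 and 1398 counts (log2 ratio 0.19, interval 0.08 to 0.30), and 22.9% of its exonic bases overlap Rab3gap2 on the other strand, which makes its count uncertain in the same way.

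At the low end, Sars2, the seryl enzyme, had 111 counts in WT, against 76 in KO and 79 with rescue (log2 ratio -0.52, interval -0.96 to -0.09). Fars2, the phenylalanyl enzyme, had 252, 188 and 221 counts (log2 ratio -0.40, interval -0.68 to -0.12). Ears2, the glutamyl enzyme, had 186, 142 and 156 counts (log2 ratio -0.36, interval -0.69 to -0.04). On the rows used, these 3 were lower in KO than in WT beyond counting error. For Ears2 this depended on the row, as its shorter rows (log2 ratios -0.19 and -0.27) had intervals that included 0. Hars2, Aars2 and Nars2 were nearest to WT, with 354, 346 and 323 counts for Hars2 in WT, KO and rescue, 309, 302 and 344 for Aars2, and 265, 263 and 289 for Nars2. For 10 of the 16 genes the interval on the row used included 0 and a difference from WT was not detectable at this depth. Cars2 was among them (log2 ratio -0.23, interval -0.56 to 0.10). Several other Cars2 rows lay below 0, such as 1 of 1850 bases (log2 ratio -0.41, interval -0.75 to -0.07).

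Enzymes for the same amino acid in the 2 compartments were set side by side, as 17 pairs over 16 mitochondrial genes, with Eprs and Fars2 each entering 2 pairs. In 14 of 17 pairs the cytosolic gene had the higher log2 ratio in KO against WT, with a median difference of 0.32. In rescue against WT, which shares the WT library, it was higher in 12 of 17, with alanine, tyrosine and the phenylalanine alpha subunit now just below 0 (-0.04, -0.08 and -0.04) and histidine above (0.08). The gap was widest for serine, at 0.66 for Sars and -0.52 for Sars2, a difference of 1.18. With the length trend removed serine came to 1.09 and glutamate was wider, at 1.16. Glutamate (Eprs and Ears2) differed by 1.10 and arginine (Rars and Rars2) by 0.94. In TPM the cytosolic seryl gene stood at 16.5 times the mitochondrial one in WT and 37.4 times in KO. The order was the other way in 3 pairs, among them valine (Vars 0.34, Vars2 0.69) and histidine (Hars -0.10, Hars2 -0.01). Counting intervals of the 2 genes did not overlap in 9 pairs with the cytosolic gene higher and in 2, valine among them, with the mitochondrial gene higher.

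**Figure D3:**
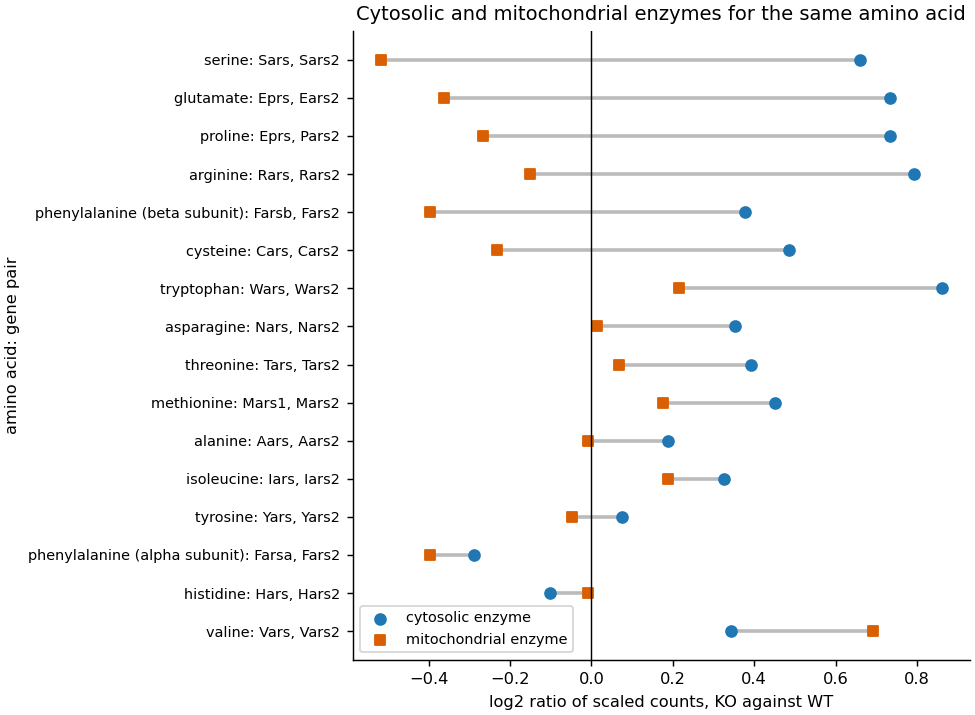
Log2 ratio of scaled counts in KO against WT for the cytosolic (circles) and mitochondrial (squares) gene of the same amino acid, for the pairs described, sorted by their difference. In 14 pairs the circle lies right of the square, and the widest gap is that of serine at 1.18.

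The 2 remaining members are relatives of the enzymes. Prorsd1, a prolyl synthetase domain protein, had 154 counts in WT, against 100 in KO and 133 with rescue, 1.51-fold lower in KO (log2 ratio -0.59, interval -0.98 to -0.22). It was the 1 member at least 1.5-fold lower, and with the length trend removed its log2 ratio of -0.53 fell short of 1.5-fold. Aarsd1, an editing protein that removes wrongly attached serine from alanine tRNA, had 307, 349 and 360 counts, with an interval that included 0. Its exons share 41.0% of their bases with Gm27029, a gene on the same strand, so its count is uncertain.

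The rescue library, from the knockout line expressing FLAG-Drp1, had cytosolic synthetase counts close to those of the KO library. It is compared here with the same KO library as above. In this comparison the median log2 ratio of the 21 cytosolic genes was 0.04, and single genes ran from -0.25 to 0.15. No synthetase of either set was 2-fold different, beside 1.31% of all genes higher and 0.568% lower, or 1.5-fold different, beside 3.86% and 2.76%. The ratio was above 0 for 13 of 21 cytosolic genes, beside 51.0% of all genes. Wars was 1.19-fold below KO in rescue (log2 ratio -0.25, interval -0.34 to -0.16) and Vars 1.10-fold lower (log2 ratio -0.14, interval -0.21 to -0.06). Nars and Tars were 1.11-fold and 1.10-fold higher, with intervals of 0.10 to 0.20 and 0.07 to 0.20. Among mitochondrial genes the median was 0.11, and Mars2, with 164 counts in WT, against 182 in KO and 140 with rescue, had the largest ratio at -0.37 (interval -0.70 to -0.05). Tars2 was 1.17-fold higher (485, 499 and 581 counts). The counting interval lay above 0 for 4 cytosolic genes and below 0 for 3, beside 18.1% and 17.3% of all genes.

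Against WT, the rescue library had a median log2 ratio of 0.43 for cytosolic genes and 0.10 for mitochondrial genes, beside 0.01 for all genes. This comparison shares its WT library with KO against WT, so the similar medians are not separate evidence. No enzyme was 2-fold different, beside 4.61% of all genes higher and 3.02% lower. The ratio was above 0 for 19 of 21 cytosolic genes and 9 of 16 mitochondrial genes, beside 51.5% of all genes. The counting interval lay above 0 for 17 cytosolic genes and below 0 for 1, beside 27.4% and 25.1%. At least 1.5-fold higher in rescue were 5 of 21 cytosolic genes, beside 10.5% of all genes, and none of the 16 mitochondrial genes. They were Rars (1.70-fold), Sars (1.66-fold), Eprs (1.58-fold), Wars (1.53-fold) and Gars (1.51-fold). With the libraries scaled on total counts alone, 3 cytosolic genes passed 1.5-fold. No cytosolic or mitochondrial enzyme was 1.5-fold lower, beside 7.94% of all genes.

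Transcript length moved with these ratios. Across protein-coding genes the Spearman correlation of transcript length with the KO against WT log2 ratio was 0.25 (11132 genes). With rescue against KO it was -0.53, and with rescue against WT -0.01. Over the 21 cytosolic genes the same values were 0.39, -0.52 and 0.30, and over the 16 mitochondrial genes 0.52, -0.48 and 0.24. These are descriptions across genes that share the same libraries. With a smooth length trend removed, the cytosolic median was 0.32 in KO against WT with 18 of 21 genes above 0, and the mitochondrial median was 0.01, so the order of the sets was kept. The cytosolic and mitochondrial rows have median lengths of 2764 and 3112 bases. Farsa moved from -0.29 to -0.20 and Sars2 from -0.52 to -0.43.

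Promoter sequence was examined because most cytosolic genes were higher in KO and ATF4 is known to act through a composite element. RefSeq promoters of build GRCm38.p6, running from 250 bases before to 50 after a transcription start, were matched by symbol for 31 of the 41 members. The motif TGATGNAA, the ATF4 with C/EBP element, was searched on both strands. It was found in 5 of 14 cytosolic promoters (Aars, Gars, Iars, Tars and Yars), in none of 14 mitochondrial promoters of 13 genes, and in 3.59% of 21141 promoters of protein-coding genes. The matches are shown so that a reader can see the element and its place. A match is a description, not a shown binding site. Each is written 5′ to 3′ on the strand of the gene, with the match, or its reverse complement, in capitals, and positions count from the start site, its first transcribed base being 1.
Gars at chr6:55037945-55038000, plus strand, match at -30: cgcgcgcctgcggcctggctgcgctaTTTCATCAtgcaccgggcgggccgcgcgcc
Aars at chr8:111033704-111033763, plus strand, match at -112: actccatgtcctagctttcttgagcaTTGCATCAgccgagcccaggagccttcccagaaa
Tars at chr15:11399659-11399699, minus strand, match at -15: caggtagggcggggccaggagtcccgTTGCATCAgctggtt
Iars at chr13:49682126-49682155, plus strand, match at 8: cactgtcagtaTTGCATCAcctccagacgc
Yars at chr4:129189895-129189924, plus strand, match at 4: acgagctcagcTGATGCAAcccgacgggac
Aars holds another match at position 10. Of the genes with a match, Gars was 1.49-fold, Tars 1.31-fold, Iars 1.25-fold, Aars 1.14-fold and Yars 1.05-fold higher in KO. Eprs and Sars, at 1.66-fold and 1.58-fold, held no match in these windows, which says nothing of elements elsewhere. Wars, Rars, Lars, Cars, Nars, Vars and Hars were not matched to the promoter table. Wars and Rars had the highest ratios, so genes with and without a match cannot be ranked here. The second motif searched, also on both strands, was that of NRF1, a factor known for nuclear genes of mitochondrial function. It was found in 3 of 14 cytosolic promoters (Farsb, Kars and Tars), in 2 of 14 mitochondrial ones (Mars2 and Iars2) and in 6.40% of protein-coding promoters. Neither contrast between the sets was tested.

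Partners of tRNA charging gave mixed values. Of 11 genes for tRNA export, editing, amidation, formylation and selenocysteine charging, none was 2-fold different in KO, 1 was 1.5-fold higher and 1, the member Prorsd1, 1.5-fold lower, near the 12.1% and 10.4% of all genes. Xpot, the exportin that carries tRNA out of the nucleus, had 1770 counts in WT, against 3011 in KO and 2782 with rescue, 1.73-fold higher in KO (log2 ratio 0.79, interval 0.71 to 0.88). Its ratio was close to that of Rars (0.79) and below that of Wars (0.86). With the length trend removed Xpot came to 0.69, below its counting interval, and Rars and Wars to 0.86 and 0.90. Gatc, a subunit of the amidase that makes mitochondrial glutaminyl-tRNA in place of a separate enzyme, had 377, 289 and 304 counts (log2 ratio -0.36, interval -0.58 to -0.13). Its partners Gatb and Qrsl1 had intervals that included 0. Pstk, the kinase of the selenocysteine route, had 128, 161 and 194 counts (log2 ratio 0.36, interval 0.01 to 0.70).

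Downstream of charging, elongation factors differed little. Of 6 cytosolic factors 5 passed the filter, and their median was 0.07. None was 1.5-fold different in KO, beside 12.1% of all genes higher and 10.4% lower. Eef1g, a subunit of the nucleotide exchange complex, was 1.27-fold higher and Eef2, the translocase, 1.26-fold higher, while Eef1d was 1.16-fold lower. Of 10 listed mitochondrial translation factors 9 were found and passed, with a median of -0.01. Mtrf1, a release factor, had 12, 36 and 29 counts (log2 ratio 1.57, interval 0.63 to 2.69). It was the single factor of the 9 past 2-fold, beside 5.35% of all genes higher and 4.07% lower. Mtif2, the initiation factor, was 1.28-fold lower, and Tufm, which delivers charged tRNA in mitochondria, had 1124, 1001 and 1149 counts.

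The eIF2 pathway senses uncharged tRNA through the kinase GCN2, and 1 of its 18 listed genes was 2-fold different, a share near that of all genes (5.35% higher and 4.07% lower). That gene was Eif2ak4, which encodes GCN2. It had 235 counts in WT, against 561 in KO and 467 with rescue, 2.43-fold higher in KO (log2 ratio 1.28, interval 1.06 to 1.51), and both KO and rescue stood well above WT. Ddit3, the stress factor CHOP, was 1.74-fold higher (534, 911 and 794 counts) and Ppp1r15a, a phosphatase subunit that reverses eIF2 phosphorylation, 1.47-fold. Eif2s2, the beta subunit of eIF2, was 1.44-fold higher, while the other eIF2 subunit genes Eif2s1 and Eif2s3x were 1.11-fold and 1.17-fold lower. Atf4 itself had 4377, 5115 and 5441 counts, 1.19-fold higher in KO (log2 ratio 0.25, interval 0.19 to 0.31). The other eIF2 kinase genes Eif2ak1, Eif2ak2 and Eif2ak3 had log2 ratios of -0.21, -0.05 and -0.38. The counting interval lay above 0 for 9 of the 18 genes and below 0 for 6, beside 29.0% and 29.3% of all genes. The median of the list was 0.12, and 0.04 with the length trend removed.

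Genes that supply amino acids had a higher median ratio than the synthetases, a difference that was not tested. Of 21 listed, 20 passed the filter, their median being 0.98 for KO (log2 ratio to WT), and 9 were at least 2-fold higher and none 2-fold lower, beside 5.35% and 4.07% of all genes. Lowest were Glul, which makes glutamine, Shmt1 and Slc38a2, with log2 ratios of -0.38, -0.23 and -0.18. The supply gene was not always above the synthetase, as Glul lay below Qars (0.12) and Slc7a1, an arginine transporter, at 0.22 lay below Rars (0.79). Asns, which makes asparagine, had 1677, 5312 and 5223 counts (log2 ratio 1.69) beside 0.35 for Nars. Cth, which makes cysteine, had 47, 370 and 341 counts (log2 ratio 2.99) beside 0.49 for Cars. Pycr1 and Aldh18a1 of proline synthesis had log2 ratios of 1.78 and 1.42 beside 0.73 for Eprs. Phgdh and Psat1 of serine synthesis had 1.10 and 0.89 beside 0.66 for Sars. This list holds known ATF4 targets and was drawn up with earlier results of these data in view.

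**Figure D4:**
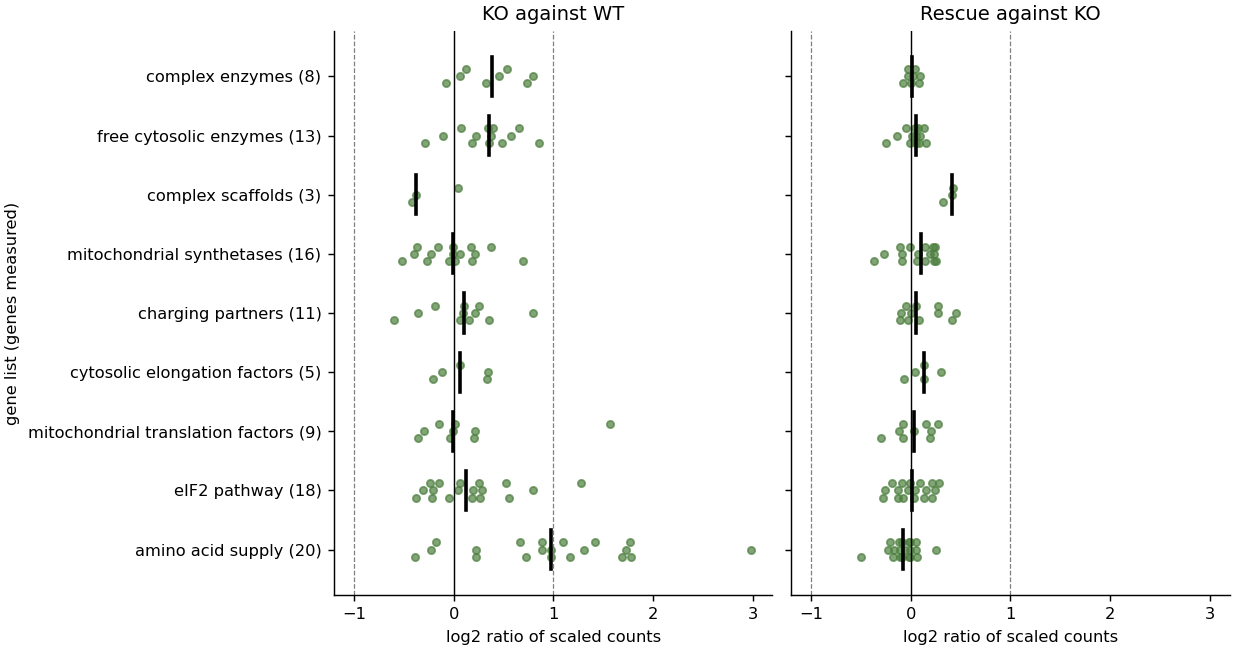
Log2 ratio of scaled counts for each gene (points) of 9 gene lists, with the list median as a black bar, KO against WT on the left and rescue against KO on the right. Dashed lines mark 2-fold. Cytosolic enzyme medians are 0.39 and 0.35 in KO against WT, the scaffold median is -0.38 and that of amino acid supply is 0.98, and all medians lie between -0.07 and 0.41 in rescue against KO.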

How the data were processed

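The members and gene lists were chosen with earlier results of these data known. The submitters' processing notes name featureCounts 2.0.0, HISAT2 2.2.1, cutadapt 1.9.1 and the GRCm39 build, without roles. No source used here gives their settings, strand or handling of reads that match several genes. The tables deposited by the authors give raw count, RPKM and TPM values by transcript, over 139023 rows. RPKM deposited by the authors was not used further. Rows of a gene repeat the same reads, so a gene's count was its row with the highest count over the 3 libraries (for the synthetase genes its highest mRNA row).

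Counts were scaled with TMM factors (edgeR 4.0.16, R 4.3.3), and log2 ratios were taken after adding 0.5. Genes with a mean of at least 1 CPM were kept. Ratios have exact conditional Clopper-Pearson 95% counting intervals, and scripts were tested on simulated data. No count test was run, since each group is 1 library. Of 141 listed symbols, 122 matched directly, 18 by a RefSeq synonym, and 1 was not matched. Described in full were the members with the 8 largest and 4 smallest ratios of KO against WT, and the 4 largest of rescue against KO, by size in either direction, and others by group. Alternatives were DESeq2 1.42.0 size factors, total counts, no filter, summed rows, adding 1, and removal of a lowess trend on length fitted over protein-coding genes with 100 or more counts. Lists for class, complex and markers were handled alike, and promoter and overlap annotation used GRCm38, with no conversion of coordinates. A mitochondrial gene enters the group values but is not reported here by itself.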

Additional observations from a re-analysis of the deposited data

How the results depend on the processing

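Between settings, the cytosolic median log2 ratio in KO against WT ran from 0.32 (length trend removed) to 0.35, and the mitochondrial one from -0.02 to 0.01. No setting gave an enzyme past 2-fold in any pair of libraries. Of the 123 single log2 ratios (41 genes, 3 pairs of libraries), all stayed within their counting intervals under DESeq2 size factors, total counts, no filter, summed rows and adding 1. With the length trend removed 113 did so and 9 moved further, and Eprs in rescue against KO, whose interval lay below 0, came to 0.0001. With it removed Gars passed 1.5-fold in KO against WT, making 5 cytosolic genes, and Prorsd1 (-0.53) no longer did. The cytosolic genes at least 1.5-fold higher in rescue against WT were 3 with total counts. A literal reading of the split, chosen after seeing the data, placed Prorsd1 with 23 cytosolic genes, of which 1 was then at least 1.5-fold lower in KO against WT. No paired analysis was possible because each group held 1 library, and none could be left out. Low counts of the mitochondrial genes (76 to 1413 in KO) limit what is detectable.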

Other observations

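Hars and Hars2, for histidine, are neighbours whose exons overlap by 195 bases on opposite strands in GENCODE M21, and both lay close to WT in KO. Hars had 1079 counts in WT, against 988 in KO and 1040 with rescue, and Hars2 had 354, 346 and 323. Of the 41 members, 40 were found in this annotation. Of these, 5 share at least 10% of their exonic bases with another gene, among them Aarsd1, Aimp2, Iars2 and Aars (14.3%, with Exosc6).

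Transcript rows of a member mostly gave the same ratio. Of 36 members with 2 or more rows of at least 100 counts over the 3 libraries, 5 had rows whose KO against WT log2 ratios differed by more than 0.2, and all 5 were mitochondrial (Vars2, Fars2, Cars2, Sars2 and Wars2). For Fars2 the rows ran from -0.55 to -0.31 and for Cars2 from -0.41 to -0.17. These genes have low counts, and their rows repeat the same reads, so an overlap of row intervals would not show that rows agree. For Cars2 the interval included 0 on some rows and not on others.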
